A study of Homo sapiens with 6 samples.

Results

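The receptors and ligands of the EGFR family were followed in HCT116, a cell line from a colorectal carcinoma, together with ERRFI1, an inhibitor of these receptors. The 9 genes were chosen by name: the receptors EGFR, ERBB2 and ERBB3, the ligands AREG, EREG, HBEGF, TGFA and BTC, and ERRFI1. All 9 were found among the 19871 gene symbols of the mRNA tables, and they account for 50 of the 92866 transcripts listed. RNA had been sequenced as strand-marked lncRNA libraries in 3 groups of 2 libraries: a negative control named NC, cells transfected with a GAS5 plasmid (GAS5), and cells transfected with a siRNA against YAP (siYAP). All groups are HCT116 cells, and the time between transfection and RNA extraction is not given in the sources used here. The labels do not state what the NC cells received, so effects of plasmid or siRNA delivery and effects of GAS5 or YAP cannot be told apart against NC. Neither do they state which siRNA against YAP was used.

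EGFR family receptors are tyrosine kinases of the cell surface that pair when a ligand binds, and then pass the signal to the RAS-MAPK and PI3K-AKT cascades. The ligands are made as membrane-bound precursors and are released by proteases of the ADAM family. In colorectal cancer EGFR is a drug target, and high AREG and EREG are known to mark tumours that respond to antibodies against it. ERRFI1, also called MIG6, is induced by receptor signalling and blocks the kinase domain in return. YAP, bound to TEAD factors, is known to activate AREG in other epithelial cells.

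Each deposited value is 1 mean over the libraries of a group, so no SD could be given and no test between groups could be run here. The authors' own p-values and FDR, deposited beside these means, were not used. Summed mean counts were 27206123 in NC, 25521577 in GAS5 and 26298036 in siYAP. Fold changes below are log2 ratios of group means after scaling. The 95% intervals beside them are exact intervals for the reads behind 2 libraries, which cover counting error only and leave out the spread between cultures. The gene targeted by the siRNA, YAP1, had mean counts of 3480 in NC, 2679 in GAS5 and 1444 in siYAP, a log2 fold change of -1.15 in siYAP and of -0.27 in GAS5. CTGF and CYR61, known targets of YAP, were not lower in siYAP. Their log2 fold changes were 0.19 and 0.32 there, and 0.71 and 1.08 in GAS5. GAS5 itself has no entry in these tables. Of the epithelial markers, EPCAM, CDH1, KRT8, KRT18, KRT19 and CDX2 had counts in all groups, but VIL1, a villus marker, stayed between 0 and 6. The markers of other cell types PTPRC, CD3E, COL1A2 and PECAM1 stayed at 6 counts or fewer, whereas COL1A1 had 378.5 to 556. In GAS5, all 6 interferon-stimulated genes examined were past 2-fold above NC, with a median log2 fold change of 3.21, against 0.03 in siYAP. This moved with every GAS5 value below, and its part in them was not tested.

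The promoters of 3 ligands are shown because these genes behaved most differently from each other: AREG was furthest below NC in GAS5, EREG is its neighbour on chromosome 4 and was the member with the smallest difference in siYAP, and HBEGF was above NC in both treatments. AREG lies on chromosome 4 of GRCh38 from 74445134 to 74455009 and EREG from 74365143 to 74388751, both on the plus strand, with 56382 bases between them. BTC lies further along, from 74744759 to 74794686 on the minus strand. The 250 bases before each start come from RefSeq (GRCh38.p14), 5′ to 3′ on the strand of the gene, and capitals mark the motifs searched.
AREG, chr4:74444886-74445135, plus strand: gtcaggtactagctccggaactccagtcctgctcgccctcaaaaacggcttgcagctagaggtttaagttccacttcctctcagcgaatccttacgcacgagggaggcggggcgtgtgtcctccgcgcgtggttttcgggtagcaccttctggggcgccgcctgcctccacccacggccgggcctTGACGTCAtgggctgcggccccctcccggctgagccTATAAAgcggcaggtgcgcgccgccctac
EREG, chr4:74364895-74365144, plus strand: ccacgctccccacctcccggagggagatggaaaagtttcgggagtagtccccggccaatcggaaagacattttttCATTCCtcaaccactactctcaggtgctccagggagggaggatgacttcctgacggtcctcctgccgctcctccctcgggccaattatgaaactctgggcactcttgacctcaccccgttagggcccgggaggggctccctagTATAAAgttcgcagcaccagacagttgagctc
HBEGF, chr5:140346604-140346853, minus strand: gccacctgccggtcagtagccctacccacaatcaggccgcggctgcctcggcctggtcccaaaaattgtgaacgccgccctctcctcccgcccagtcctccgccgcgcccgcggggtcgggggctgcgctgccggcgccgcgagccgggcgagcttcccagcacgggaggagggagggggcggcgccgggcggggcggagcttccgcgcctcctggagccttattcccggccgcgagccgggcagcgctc
In the AREG promoter the capitals are a cyclic AMP response element, TGACGTCA, 65 to 58 bases before the start and a TATA box, TATAAA, 29 to 24 bases before it. In the EREG promoter they are the TEAD motif GGAATG, read on the other strand 175 to 170 bases before the start, and a TATA box 32 to 27 bases before it. HBEGF held none of the motifs searched. The search covered both strands, and no matches overlapped.

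Among all 35116 promoters of this length, TGACGTCA was found in 1.65%, GGAATG in 11.9% and TATAAA in 10.7%. Promoters were at hand for all members but ERBB3, 10 in all because EGFR and TGFA have 2 each. TGACGTCA was in 1 of the 10, GGAATG in 2 (EREG and the second EGFR promoter) and TATAAA in 3 (AREG, EREG and the second EGFR promoter). The AP-1 motif TGANTCA was in 2 (the second EGFR promoter and ERBB2) against 6.57% of all promoters. These are matches of letters and not measured sites.

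On a scale per transcript length, FPKM, AREG was the most abundant member in every group, followed by ERRFI1 and EREG. In NC, AREG was listed at 223.6 FPKM, ERRFI1 at 179.3 and EREG at 105.8. ERBB2 came next with 35.26, then TGFA with 27.35, ERBB3 with 24.55 and EGFR with 23.75. HBEGF, with 5.01, and BTC, with 2.126, were the lowest. The order was the same in the treated groups except that EGFR stood above ERBB3, at 19.74 against 19.11 FPKM in GAS5 and at 27.51 against 26.56 in siYAP. Whether these neighbours differ cannot be judged without separate libraries. The order also depends on summing FPKM over transcripts, which gives short transcripts much weight. ENST00000549061 of ERBB3, with 560 bases, gave 6.755 FPKM in NC from 4.746% of the ERBB3 counts. The main transcripts alone had 15.41 FPKM for EGFR and 7.43 for ERBB3 in NC. AREG made up 61.45% of the summed ligand FPKM in NC, 53.6% in GAS5 and 65.33% in siYAP, and EREG 29.07%, 35.41% and 24.59%. Added up, the ligands reached 363.8 FPKM in NC, 258.7 in GAS5 and 395.0 in siYAP, and that of the receptors 83.56, 69.29 and 91.37. The other members of the receptor and ligand family were near the floor of detection. ERBB4 had 8.5 to 10 mean counts, EGF 12 to 16.5, EPGN 1 to 3, NRG1 7 to 17.5, NRG2 32.5 to 33.5 and NRG4 4.5 to 5.5, and NRG3 was at 0 in all groups.

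**Figure D1:**
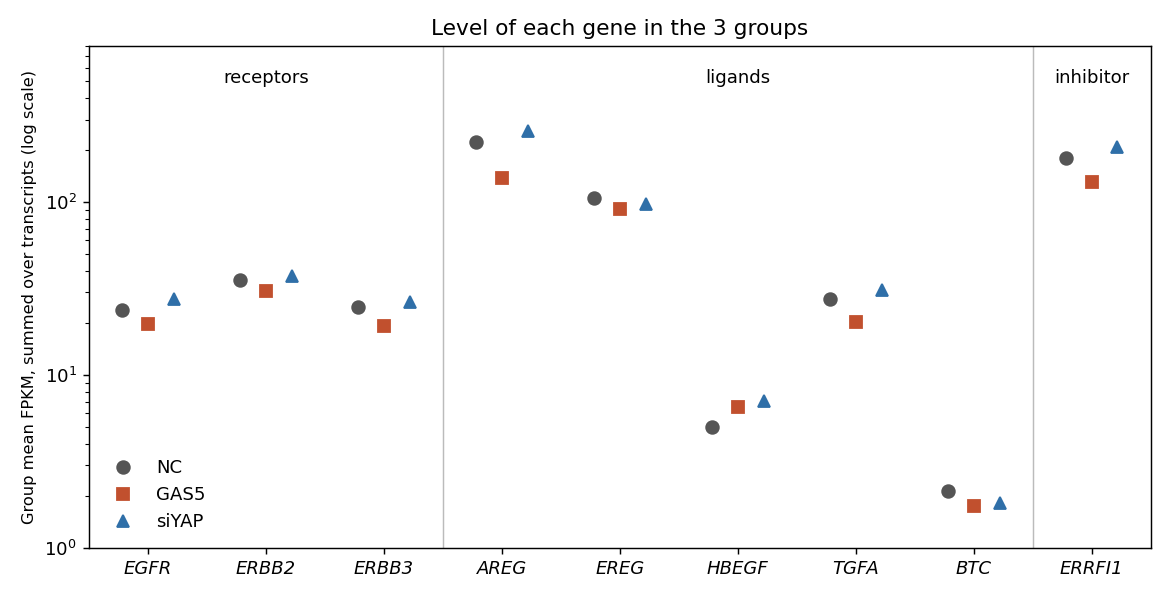
Group mean FPKM, summed over the transcripts of each gene (log axis), for the receptors, the ligands and ERRFI1, with 1 point for NC (circle), GAS5 (square) and siYAP (triangle); no error can be drawn from group means. AREG, ERRFI1 and EREG sit between 91.59 and 258.0, the receptors and TGFA between 19.11 and 37.3, and HBEGF and BTC at 7.065 or less.

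Cells with the GAS5 plasmid had less of nearly every member. In GAS5, 8 of the 9 genes were below NC, with a median log2 fold change of -0.29, where 51.7% of the 11907 genes with at least 50 mean counts were below NC and the median of all genes was -0.01. The differences were small: no member was past 2-fold, against 1.06% of all genes, and 1 (AREG) was past 1.5-fold, against 4.44%. With siYAP, 7 of the 9 genes were above NC, with a median of 0.25, and EREG and BTC were below, where 47.0% of all genes were below and their median was 0.02. No member was past 2-fold there (0.773% of all genes) or past 1.5-fold (7.21%). Both comparisons use the same NC means, so an error in NC moves both. Set directly against siYAP, GAS5 had lower values of all 9 genes, with a median of -0.47, against 54.1% of all genes and a median of -0.03. In that comparison 4 of the 9 (EGFR, AREG, TGFA and ERRFI1) were past 1.5-fold, against 12.9% of all genes, and none was past 2-fold, against 2.37%. EGFR, at -0.64, was no longer past 1.5-fold with scaling by total counts (-0.58), by FPKM (-0.48) or relative to genes of like length (-0.57).

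**Figure D2:**
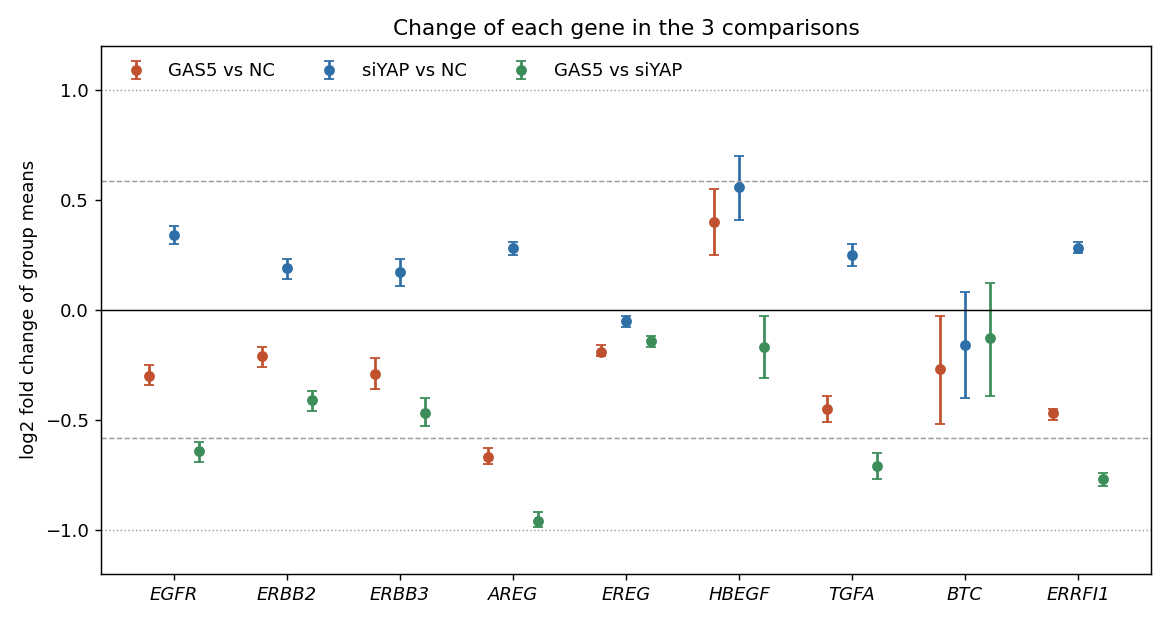
Log2 fold change of the group means of each gene in GAS5 vs NC, siYAP vs NC and GAS5 vs siYAP; bars are 95% exact intervals that cover counting error only, and the dashed and dotted lines mark 1.5-fold and 2-fold. AREG is lowest in GAS5 vs NC at -0.67 and HBEGF is the one gene above 0 in it, at 0.40.

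The 3 receptors were below NC in GAS5 and above it in siYAP. In siYAP the sum of EGFR differed more than those of ERBB2 and ERBB3. With only the most abundant transcript of each this order was lost, at 0.39 for EGFR, 0.51 for ERBB2 and 0.38 for ERBB3. EGFR, which binds all 5 ligands studied here, lies on chromosome 7 from 55019021 to 55211628 and had mean counts of 4926.5 in NC, 3722.5 in GAS5 and 5746.5 in siYAP. GAS5 differed from NC by a log2 fold change of -0.30 (-0.34 to -0.25) and siYAP by one of 0.34 (0.30 to 0.38). ERBB2, which has no known ligand of its own and serves as partner to the others, lies on chromosome 17 from 39687914 to 39730426. Its mean counts were 3901 in NC, 3120.5 in GAS5 and 4103 in siYAP, with log2 fold changes of -0.21 (-0.26 to -0.17) and 0.19 (0.14 to 0.23). ERBB3, a receptor for neuregulins with a weak kinase, lies on chromosome 12 from 56076799 to 56103505 and had mean counts of 2197, 1666.5 and 2279. Its log2 fold changes were -0.29 (-0.36 to -0.22) and 0.17 (0.11 to 0.23). Each receptor was lowest in GAS5 and highest in siYAP after scaling. For ERBB2 the value in siYAP turned to -0.05 relative to genes of like GC content and was 0.08 by FPKM, so its direction there depends on the processing. Between GAS5 and siYAP the log2 fold change was -0.64 for EGFR, -0.41 for ERBB2 and -0.47 for ERBB3.

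The annotated transcripts of a receptor did not always follow its sum. A transcript was past 2-fold in 4 of the 27 member transcripts with at least 50 counts in a group compared in GAS5 vs NC (12.4% of all such transcripts), in 5 of 28 in siYAP vs NC (13.1%) and in 4 of 27 in GAS5 vs siYAP (14.9%). Reads shared by overlapping transcripts were divided by the authors' counting, and the intervals do not include the error of that step. These shares are near those of all transcripts. Some transcripts passed the limit of 50 counts only through the group where they were high. Among those named below these are ENST00000342916 of EGFR and ENST00000584601, ENST00000445658 and ENST00000580074 of ERBB2. Their fold changes only describe the group means.

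The full-length EGFR transcript, ENST00000275493 (1210 codons), carried, of the EGFR counts, 85.26% in NC, 82.09% in GAS5 and 88.32% in the siYAP group. Its log2 fold changes were -0.35 in GAS5 and 0.39 in siYAP. The next most abundant, ENST00000638463 (464 codons), had mean counts of 482.9 in NC, 483.2 in GAS5 and 448.1 in siYAP. It differed little from NC, at 0.11 (-0.02 to 0.24) in GAS5 and 0.01 (-0.13 to 0.14) in siYAP. ENST00000342916 (628 codons), which encodes a shorter EGFR without the membrane anchor and kinase, had mean counts of 67.9 in NC, 11.35 in GAS5 and 58.09 in siYAP. GAS5 and NC differed in it by a log2 fold change of -2.30 (-3.16 to -1.81). The 3 transcripts of this short kind did not shrink in sum as a share of EGFR in GAS5, at 4.739% in NC, 4.798% in GAS5 and 3.827% in siYAP.

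ERBB2 counts were divided mainly between ENST00000269571 (1255 codons) and ENST00000541774 (1240 codons). The first took 46.22% in NC and 57.69% in siYAP, with GAS5 between them, and the second went from 46.54% in NC to 38.85% in GAS5 and 30.73% in siYAP. With siYAP the first was above NC by a log2 fold change of 0.51 and the second below it at -0.41, so the small difference of the ERBB2 sum joins opposite values. Of the minor ERBB2 transcripts, ENST00000584450 went from 62.2 counts in NC to 157.7 in GAS5 and 117.2 in siYAP, with log2 fold changes of 1.42 and 1.01. ENST00000584601 had 50.41, 7.225 and 3.46, with log2 fold changes of -2.42 and -3.19. In siYAP alone among the treatments, ENST00000578199 (63.08 to 184.7 counts) and ENST00000445658 (35.88 to 141.2) were past 2-fold above NC and ENST00000580074 (65.97 to 26.07) past 2-fold below it.

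In ERBB3, the main transcript ENST00000267101 (1342 codons) took a share of 55.58% in NC, 59.96% in GAS5 and 64.39% in the siYAP group. ENST00000550070, an incomplete coding model, went from 203.1 counts in NC to 81.68 in GAS5 and 135.7 in siYAP, with a log2 fold change of -1.19 in GAS5 (-1.48 to -0.94). By the positions of whole genes, ERBB2 overlaps PGAP3 and MIEN1 on the opposite strand. EGFR overlaps EGFR-AS1, and ERBB3 overlaps AC034102.2 on its own strand. Whether their exons overlap was not examined. The libraries mark strand, but whether the counting used it is not given in the sources used here, so reads of these pairs may be mixed.

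**Figure D3:**
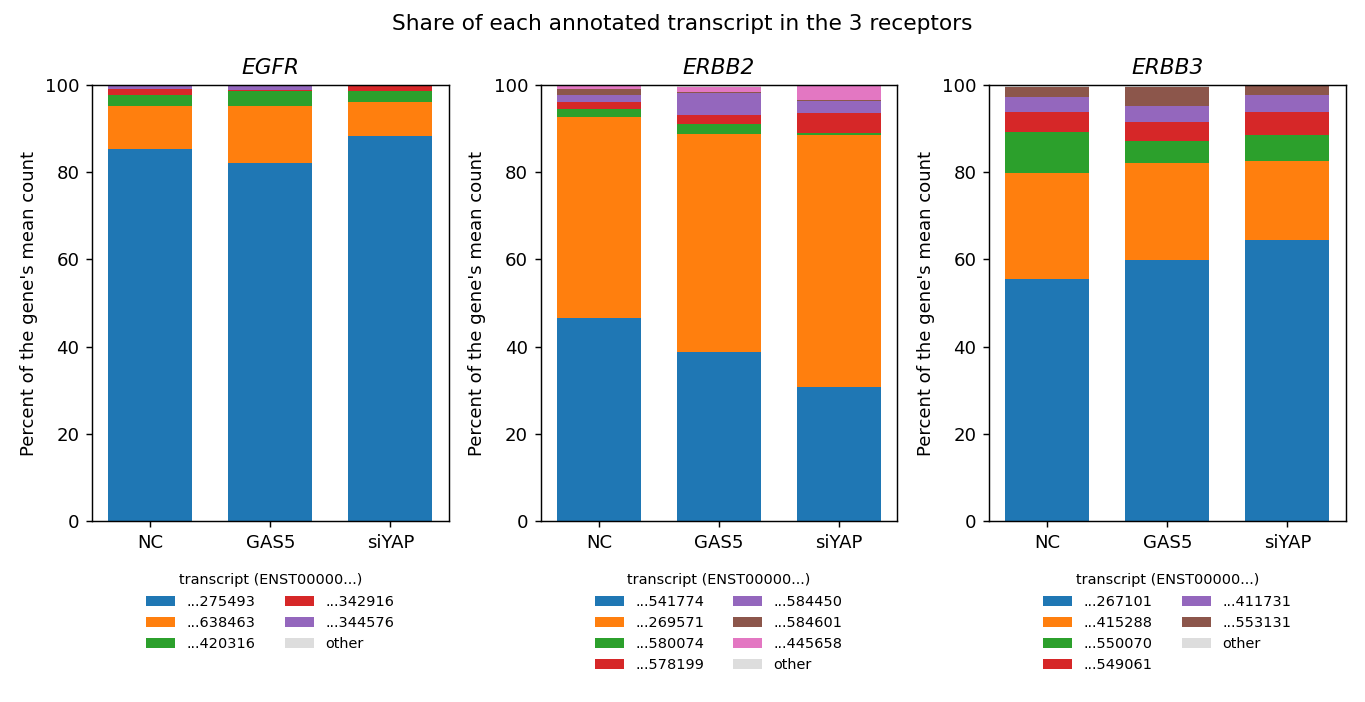
Percent of the summed mean count of EGFR, ERBB2 and ERBB3 (vertical axis) taken by each transcript in NC, GAS5 and siYAP; colours are transcripts that reach at least 1% in a group, named by the last 6 digits of their identifier, and grey is the rest. In ERBB2 the share of ENST00000541774 is 46.54% in NC, 38.85% in GAS5 and 30.73% in siYAP.

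Among the ligands, amphiregulin (AREG), which binds EGFR only, differed most in GAS5, both from NC and from siYAP, whereas HBEGF differed most in siYAP from NC. AREG had mean counts of 7659.5 in NC (95% exact Poisson interval 7539 to 7782), 4477 in GAS5 (4385 to 4571) and 8578 in siYAP (8450.0 to 8707). After scaling, the GAS5 mean was 0.630 times the NC mean, a log2 fold change of -0.67 (-0.70 to -0.63), which ranked 161 from the lowest among 11907 genes. In siYAP, AREG was 1.21 times NC, a log2 fold change of 0.28 (0.25 to 0.31), and thus not lower. YAP1 was reduced there but not absent, with 1444 counts against 3480 in NC, and CTGF and CYR61 were not lower either. Whether YAP acts on AREG in these cells was not tested. Between GAS5 and siYAP the log2 fold change was -0.96 (-0.99 to -0.92), the largest of any member. A single transcript, ENST00000395748 (252 codons), held 99.99% of the AREG counts in NC. No transcript carried the symbol AREGB, a copy of AREG listed in older gene sets.

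Epiregulin (EREG), which binds EGFR and ERBB4, had the second most counts of the members in NC and differed little between groups. Its mean counts were 13524 in NC, 11022.5 in GAS5 and 12023.5 in siYAP, as deposited. After scaling, the difference from NC was -0.19 in GAS5 (-0.21 to -0.16) and -0.05 in siYAP (-0.08 to -0.03) on the log2 scale. The siYAP value turned to 0.12 relative to genes of like GC content. Thus AREG and EREG, neighbours on chromosome 4 that share the TATA box in the promoters shown above, stood 0.630 and 0.879 times NC in GAS5.

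TGFA, a ligand of EGFR only on chromosome 2, had mean counts of 2727.5 in NC, 1855.5 in GAS5 and 2996 in siYAP. Relative to NC this gave -0.45 on the log2 scale for GAS5 (-0.51 to -0.39) and 0.25 for siYAP (0.20 to 0.30). Both of its main transcripts gave like values, at -0.45 and -0.43 in GAS5 and at 0.25 and 0.24 in siYAP. TGFA was lowest in GAS5 and highest in siYAP, as AREG was.

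HBEGF, a heparin-binding ligand of EGFR and ERBB4 on chromosome 5, was the one member above NC in GAS5. Its mean counts before scaling were 332.5 in NC (307.7 to 358.8), 407.5 in GAS5 (380.0 to 436.5) and 452 in siYAP (423 to 482.5). These intervals cover counting error only. The log2 fold changes were 0.40 (0.25 to 0.55) and 0.56 (0.41 to 0.70), the second at rank 487 from the highest of all genes. It missed the 1.5-fold limit, 0.58 on the log2 scale, by the least of all members in siYAP.

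BTC, betacellulin, a ligand of EGFR and ERBB4, had the fewest counts, 161.5 in NC (144.4 to 180.1), 123.5 in GAS5 (108.6 to 139.9) and 133.5 in siYAP (118 to 150.5). The log2 fold change was -0.27 in GAS5 (-0.52 to -0.03) and -0.16 in siYAP (-0.40 to 0.08), and the second is within counting error. Its counts were split between ENST00000395743 (84.19, 49.53 and 58.92) and a transcript assembled from the reads (77.31, 73.97 and 74.58). The lower value of BTC in GAS5 came from the annotated transcript, with a log2 fold change of -0.64, while the assembled one stood at 0.04.

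ERRFI1, the inhibitor, was lowest in GAS5 and highest in siYAP, as were AREG, TGFA and the receptors. For ERBB2 this did not hold relative to genes of like GC content, with -0.05 in siYAP. The share of all genes with this order was not counted. It is not particular to the members, since CDH1 had it too (-0.44 in GAS5 and 0.23 in siYAP). It lies on chromosome 1 from 8004404 to 8026308 and had mean counts of 14453 in NC, 9642.5 in GAS5 and 16230.5 in siYAP. On the log2 scale GAS5 differed from NC by -0.47 (-0.50 to -0.45), second only to AREG, siYAP from NC by 0.28 (0.26 to 0.31), and GAS5 from siYAP by -0.77 (-0.80 to -0.74). The transcript ENST00000377482 (462 codons) held 92.68% of its counts in NC. A minor transcript, ENST00000467067 (79 codons), went from 646.6 counts in NC to 416.4 in GAS5 and 396.3 in siYAP, and so was below NC in both.

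GC content moved with the siYAP values. The genes above the floor were divided into 10 equal bins by the GC content of their most abundant Ensembl transcript. The median log2 fold change in siYAP went from -0.18 in the lowest bin to 0.30 in the highest. In GAS5 it went from -0.08 to 0.07. ERBB2, with 60.33% GC, lay in a bin with a siYAP median of 0.24, and its 0.19 became -0.05 when that median was subtracted. EREG, with 36.11% GC, went from -0.05 to 0.12 in the same way and BTC from -0.16 to 0.00. EGFR (0.36), AREG (0.37), TGFA (0.34), ERRFI1 (0.43), HBEGF (0.51) and ERBB3 (0.13) stayed above 0. In GAS5, the values relative to the bin ran from -0.63 for AREG to -0.11 for EREG, with HBEGF at 0.41. Relative to genes of like GC, the median of the members was -0.26 in GAS5, 0.34 in siYAP and -0.42 between them.

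Transcript length moved with both treatments, from a median of 0.10 in the shortest of 10 equal bins of genes to -0.15 in the longest in GAS5 and from 0.14 to -0.07 in siYAP. EGFR, whose main transcript has 9821 bases, was at -0.15 in GAS5 relative to genes of like length, and AREG, with 1240 bases, at -0.73. The part of GC content and length in these values was not tested.

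**Figure D4:**
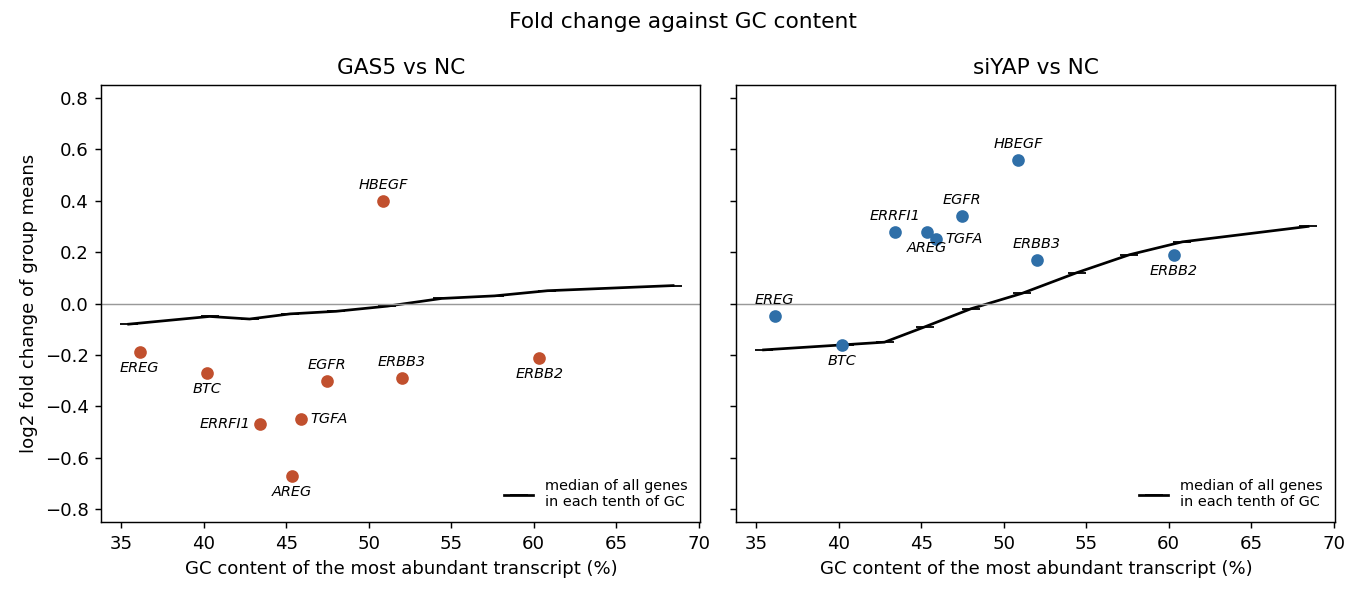
Log2 fold change of the group means (vertical axis) against the GC content of the most abundant Ensembl transcript in percent (horizontal axis) for GAS5 vs NC and siYAP vs NC. Points are the 9 genes and the black line joins the medians of all genes in each of 10 bins of GC content, drawn at the middle of its range. In siYAP the line goes from -0.18 to 0.30, and ERBB2 lies near it.

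The low receptors and ligands named above, the genes that release the ligands, 2 relay lists, the receptor brakes and the ERK output genes were examined as 6 lists with 65 genes, of which 55 were above the floor of 50 mean counts. Past 1.5-fold were 1 of the 55 in GAS5 (1.82%), 5 in siYAP (9.09%) and 8 between GAS5 and siYAP (14.5%), against the shares of all genes given above of 4.44%, 7.21% and 12.9%. For the directions given next, 51.7% of all genes were below NC in GAS5 and 47.0% in siYAP, and the counting intervals of some values counted as below or above NC include 0. Of the shedding genes, 7 of 9 were above the floor, 6 of them below NC in GAS5 with a median of -0.16, and 5 above NC in siYAP with a median of 0.22, or 0.11 relative to genes of like GC content. ADAM17, the main protease that releases AREG, TGFA and HBEGF, had mean counts of 1565 in NC, 1056.5 in GAS5 and 1407.5 in siYAP, with log2 fold changes of -0.46 and -0.04. None of the 16 adaptor and RAS-MAPK genes was past 1.5-fold, with medians of -0.01 in GAS5 and 0.09 in siYAP, the second 0.02 relative to genes of like GC content. The largest of these differences was that of MAP2K2, which encodes the kinase MEK2, at 0.51 in siYAP. It was 0.21 relative to genes of like GC content.

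In the PI3K-AKT list all 8 genes above the floor were below NC in GAS5, with a median of -0.15, PDPK1 by as little as -0.02, and none was past 1.5-fold. In siYAP, PIK3R2, a regulatory subunit of PI3K, was at 0.66, with 2796.5 counts in NC and 4073.5 in siYAP. With 65.75% GC, it was at 0.36 relative to genes of like GC. Of 10 further genes listed as brakes on the receptors, 9 were below NC in GAS5, with a median of -0.11, and 1 was past 1.5-fold in siYAP. That gene, LRIG3, had mean counts of 356.5 in NC, 283 in GAS5 and 169 in siYAP. It differed between siYAP and NC by -0.95 on the log2 scale, or -0.93 relative to genes of like GC. LRIG3 was listed through its family of membrane proteins, and whether it acts as a brake on the receptors was not tested.

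Of 14 genes known to be switched on by ERK, the last kinase of the cascade, 10 were below NC in GAS5 with a median of -0.23, and 11 above it in siYAP with a median of 0.32, or 0.33 relative to genes of like GC. Past 1.5-fold in siYAP were 3 of the 14, against 7.21% of all genes. DUSP5, a phosphatase that acts on ERK, had 5661.5 counts in NC and 9025 in siYAP (0.79). SPRY4, a feedback inhibitor of the RAS pathway, had 3950.5 and 5745 (0.65), and FOSL1, a subunit of AP-1, was at 0.61. FOSL1 was also the one gene of the 6 lists past 1.5-fold in GAS5, going from 892 counts in NC to 1599 in GAS5 and 1257.5 in siYAP and a log2 fold change of 0.95. DUSP5 and SPRY4 were at -0.29 and -0.20 in GAS5. Relative to genes of like GC, DUSP5 (0.66) and SPRY4 (0.61) stayed past 1.5-fold in siYAP and FOSL1 (0.37) did not. Between GAS5 and siYAP, 5 of the 14 were past 1.5-fold, against 12.9% of all genes. All 5 were lower in GAS5, where 54.1% of all genes were lower, with DUSP5 at -1.08.

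**Figure D5:**
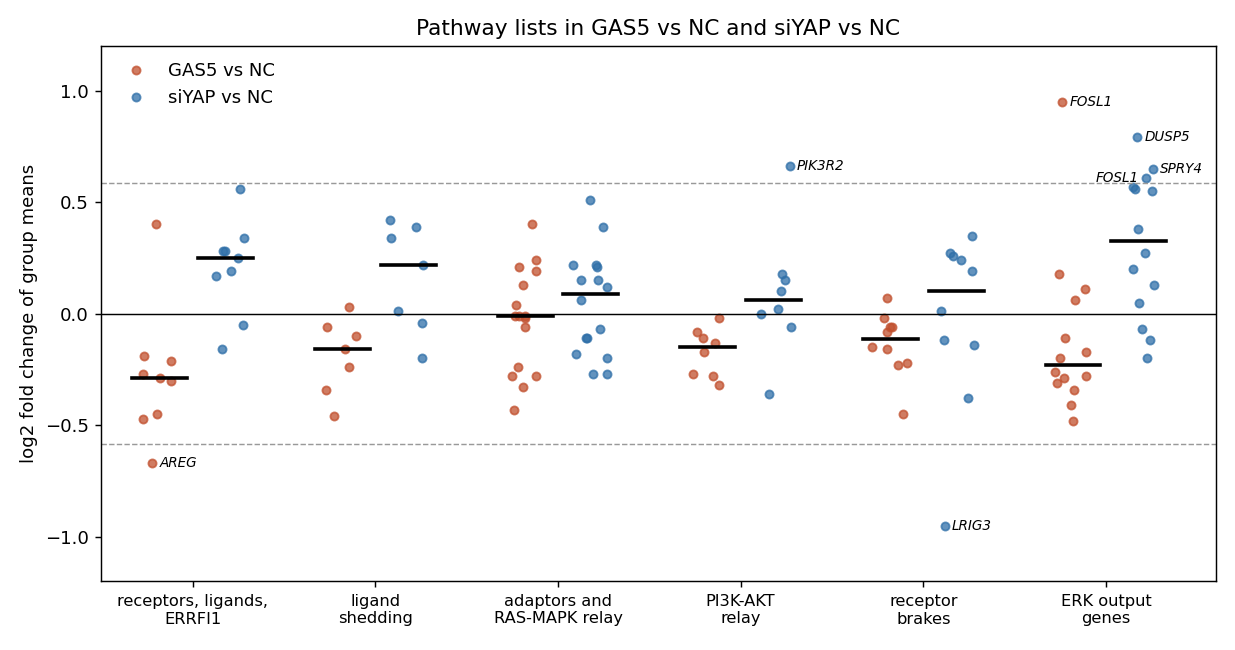
Log2 fold change of the group means of each gene above the floor, by list, in GAS5 vs NC and siYAP vs NC; each point is a gene, black bars are medians, dashed lines mark 1.5-fold, and genes past it are named. The ERK output genes have medians of -0.23 in GAS5 and 0.32 in siYAP.

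Over the 2 comparisons with NC, the genes whose pair of log2 fold changes lay closest to that of EGFR were RFLNB (-0.29 and 0.34), MYRF (-0.29 and 0.33) and HIST1H3D (-0.30 and 0.32). Closest to AREG were TMEM139 (-0.68 and 0.28), PGPEP1 (-0.67 and 0.26) and SAT1 (-0.69 and 0.29), where the distances, on the log2 scale, were 0.014, 0.016 and 0.026. Likeness over 2 values that share NC is a description of these 3 means.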

How the data were processed

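Total RNA of HCT116 cells was enriched for mRNA and ncRNA, made into dUTP libraries that mark strand and sequenced by the authors on an Illumina HiSeq. The submitters' processing notes name TopHat2 2.1.1, and the counting tool and genome build are not given in the sources used here. The authors deposited, for each transcript, an estimated count and an FPKM value (fragments scaled by transcript length and library size), each averaged by them over the 2 libraries of a group. All 27 member sums lay within 0.02 of a multiple of 0.5. The deposited tables also hold the authors' log2 fold changes, p-values and FDR, which were not used. Of the Ensembl transcripts listed, 99.89% are in GENCODE 29 (GRCh38), from which positions, lengths and GC content were taken.

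Values were summed by gene symbol. Pairs of group means were scaled by TMM in edgeR 4.0.16 after filterByExpr (minimum count 10), and 2 counts were added to each side before log2 fold changes were taken. Genes with at least 50 mean counts over the 3 groups served as background. Intervals were 95% exact Poisson intervals for counts and exact Clopper-Pearson intervals for ratios, both on the counts of 2 libraries, and they cover counting error only. No p-value was computed. The steps were tested on simulated data. Alternatives were size factors from DESeq2 1.42.0, total counts, no filter before scaling, FPKM ratios, a prior count of 0.5, Ensembl transcripts only, the most abundant transcript only and, chosen after seeing the data, centring by GC content or length. Calculations used R 4.3.3 and Python 3.11.15 (pandas 2.3.3, scipy 1.17.1).

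Named in the text are all 9 members, pathway genes past 1.5-fold against NC (or, where a list held none, the gene with the largest difference), the YAP checks, the 3 genes nearest to EGFR and to AREG, and for transcripts the most abundant ones and those past 2-fold with 50 counts or more in a group. Further transcripts, PDPK1, the marker genes and the low ERBB family members were named after their values were seen. The members and lists were chosen with earlier results of these data known. The planned tests between libraries could not be run because the tables hold means.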

Additional observations from a re-analysis of the deposited data

How the results depend on the processing

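No paired analysis was possible because single libraries are not given, only their mean, and for the same reason the fit with a replicate block and the leaving out of single libraries were not run. Of 86 recomputed counts of genes or transcripts past a limit, 82 stayed within 1.5 times the reported count. No member was past 2-fold under any setting, so those counts say little about stability. With Ensembl transcripts only, the members past 1.5-fold in GAS5 vs NC were 2 instead of 1, because the assembled BTC transcript drops out, and the pathway genes were 2 instead of 1. With only the most abundant transcript of a gene, the pathway genes past 1.5-fold in GAS5 vs NC were 5. With centring by GC content, chosen after seeing the data, those in siYAP vs NC were 3 instead of 5. Of 243 recomputed fold changes of members, 187 stayed within the counting interval of the reported value and 5 changed sign or came to 0: BTC with the most abundant transcript only (0.04 in GAS5 and 0.06 in siYAP), and in siYAP with GC centring ERBB2 (-0.05), EREG (0.12) and BTC (0.00). Some of the 243 could not move, such as those of EREG and HBEGF, each with a single transcript, under the most abundant transcript only. Over all alternatives, AREG in GAS5 vs NC ranged from -0.73 to -0.63, EGFR from -0.35 to -0.15 and ERRFI1 from -0.50 to -0.42, and HBEGF in siYAP vs NC from 0.49 to 0.56. The members past 1.5-fold in GAS5 vs siYAP ranged from 3 to 5, with EGFR lost under total counts, FPKM and length centring. Counting error was widest for BTC and HBEGF, which had the fewest reads, and the spread between cultures remains unknown.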
